A study of Homo sapiens with 11 samples.

Results

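The genes described here are 44 human genes that either detect double-stranded RNA inside the cell or are induced by interferon. They were taken by name. Every probe whose gene name in the scanner files is 1 of the 44 was used, which gave 69 of the 41000 probes on the array. Of these, 60 probes were kept because at least 6 of the 11 arrays read them well above background, among 27118 kept probes in all, and they measured 39 of the 44 genes. The other genes, CXCL10, CXCL11, EPSTI1, TLR3 and TRIM22, had no kept probe. For 16 genes with several kept probes, the probe detected on most arrays with the highest mean signal stands for the gene below, and the others are given where they differ.

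The cells were PC-3, an established human prostate cancer line, and RNA was extracted 24 h after transfection and measured on 1-colour Agilent whole human genome arrays. Mock cells received the transfection reagent with no RNA (4 arrays). The other 7 arrays came from cells given a chemically synthesized RNA duplex, with 2 arrays for miR-372 and 1 each for dsEcad640, miR-520f, miR-520c, miR-302a and miR-373. dsEcad640 is an siRNA matched to the E-cadherin promoter. Each array held 150 ng of RNA mixed from 4 transfections, so the spread between transfections was averaged before it could be measured. The p-values below rest on the spread between arrays. Whether the mock arrays, or both miR-372 arrays, held separate mixes is not stated. The labels place the arrays in 3 sets, which are separate slides. Set 1 held mock sample 1 with miR-372 (sample 4), miR-302a (sample 3) and dsEcad640 (sample 2). Set 2 held mock sample 8 with miR-373 (sample 7) and miR-520f (sample 6), and set 3 held mock samples 9 and 11, miR-372 sample 10 and miR-520c sample 12. The title of the miR-520f array reads miR-530f, while its description and treatment label read miR-520f.

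RIG-I (DDX58) and MDA5 (IFIH1) are cytoplasmic helicases that bind double-stranded RNA and signal through the adaptor MAVS to switch on interferon genes. Secreted interferon then acts on its receptor, and a complex that holds STAT2 and IRF9 binds the interferon-stimulated response element in the promoters of many genes, the sensors themselves included. PKR (EIF2AK2) and the oligoadenylate synthetases are also double-stranded RNA sensors, which stop translation and activate RNase L, and most of the other genes encode proteins that restrict viruses or tag, trim and present their peptides.

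The strands that carry the common seed are shown because the duplexes that share it lay at opposite ends of the values below. They are mature sequences from RefSeq (GRCh38.p14), 5′ to 3′, with the seed (bases 2 to 8) in capitals.
hsa-miR-302a-3p: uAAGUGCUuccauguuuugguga
hsa-miR-372-3p: aAAGUGCUgcgacauuugagcgu
hsa-miR-373-3p: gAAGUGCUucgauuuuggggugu
hsa-miR-520c-3p: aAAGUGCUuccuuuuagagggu
hsa-miR-520f-3p: aAGUGCUUccuuuuagaggguu
The first 4 strands have the same seed, AAGUGCU, and in miR-520f the seed is shifted by 1 base to AGUGCUU. The gene of miR-302a lies on chromosome 4 and the other 4 genes lie on chromosome 19, with the printed miR-372 strand at chr19:53787931-53787953 on the plus strand. The study describes dsEcad640 as having the common seed too.

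The promoters of these genes were searched for the core of the interferon-stimulated response element, which is GAAA, 2 free bases and GAAA on either strand, from 250 bases before to 50 bases after the gene start. RefSeq promoters were matched for 36 of the 44 genes, and 23 of them (63.9%) held the letters, against 3.65% of all 27305 promoters of this length. The palindrome TTCNNNGAA, bound by STAT dimers, was in 9 of the 36 (25%) and in 7.88% of all promoters. Matches of both motifs overlap in IFITM1, BST2, IFI27 and EPSTI1, and some matches of the first overlap each other. The windows below are those of genes whose values are described next, with the matched letters in capitals (GRCh38.p14).
IFI44 (chr1:78649761-78649790, minus strand): tcagagaaagGAAACTGAAActcagtgtgc
IFIH1 (chr2:162318686-162318715, minus strand): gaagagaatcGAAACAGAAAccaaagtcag
MX1 (chr21:41420559-41420588, plus strand): gagcagaaatGAAACCGAAActgaattgtc
SAMD9 (chr7:93118096-93118125, minus strand): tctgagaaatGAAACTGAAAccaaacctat
IFIT1 (chr10:89392497-89392526, minus strand): accgaaagggGAAAGTGAAActaaagctag
BST2 (chr19:17405741-17405770, minus strand): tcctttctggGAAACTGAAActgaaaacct
Promoters for OAS2, OASL, IRF7, IFIT2, MX2, USP18, TRIM22 and GBP2 were not matched. A match describes the letters and is not a measured binding site.

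All values below are log2 signals minus that array's 75th percentile, or differences of such signals in log2 units, where a difference of 1 is 2-fold. Between 54.3% and 72.7% of all probes were well above background on 10 arrays, but 88.1% were on miR-372 sample 4, where dim probes read high. No probe was saturated. The lowest signal that counted as well above background was −7.14 to −6.38 on the arrays of set 3 and −5.80 to −4.14 on those of sets 1 and 2. Detection of a dim probe is therefore not comparable between slides. Mock samples 1 and 8, on different slides, differed over all kept probes with an SD of 0.265, less than the SD of 0.409 between mock samples 9 and 11, which shared a slide. Whether mock arrays held separate RNA mixes is not stated, so the pooled comparison was also run with mock samples 1 and 8 counted as 1 sample. The epithelial and PC-3 markers KRT8, KRT18, CD44, VIM, CAV1 and TACSTD1 (EPCAM) were well above background on all 11 arrays. 1 of 3 probes of KLK3, which encodes prostate-specific antigen, was too. Of the blood cell genes, the probes of PTPRC and LYZ were detected on miR-372 sample 4 alone, and those of CD3E and CD14 on 7 to 11 arrays, at levels of −1.48 at most.

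Against the mock array or arrays of their own set, miR-372, miR-373 and miR-302a lay low for most of the 39 genes, dsEcad640 lay near mock, miR-520f lay slightly above and miR-520c lay clearly above. In miR-372 sample 10, 37 genes were below the mean of mock samples 9 and 11 and 22 were at least 2-fold below, with a median difference of −1.05. In miR-372 sample 4, on another slide, 35 were below mock sample 1 and 14 were at least 2-fold below (median −0.73). In miR-373 sample 7, 37 were below mock sample 8 and 14 were at least 2-fold below (median −0.84), and in miR-302a sample 3, 37 were below mock sample 1 and 5 at least 2-fold below (median −0.53). In dsEcad640 sample 2, 20 were below mock sample 1 and none was 2-fold away (median −0.03). In miR-520f sample 6, 10 were below mock sample 8 and 1, IFIT2, was at least 2-fold above (median 0.31), whereas in miR-520c sample 12 only 7 were below the mean of its mock arrays and 12 were at least 2-fold above (median 0.62). Of all kept probes, 46.9% were below mock in miR-372 sample 10, 34.5% in miR-372 sample 4, 57.4% in miR-373 and 50.9% in miR-302a. The share was 55.3% in dsEcad640, 60.3% in miR-520f and 45.6% in miR-520c.

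**Figure D1:**
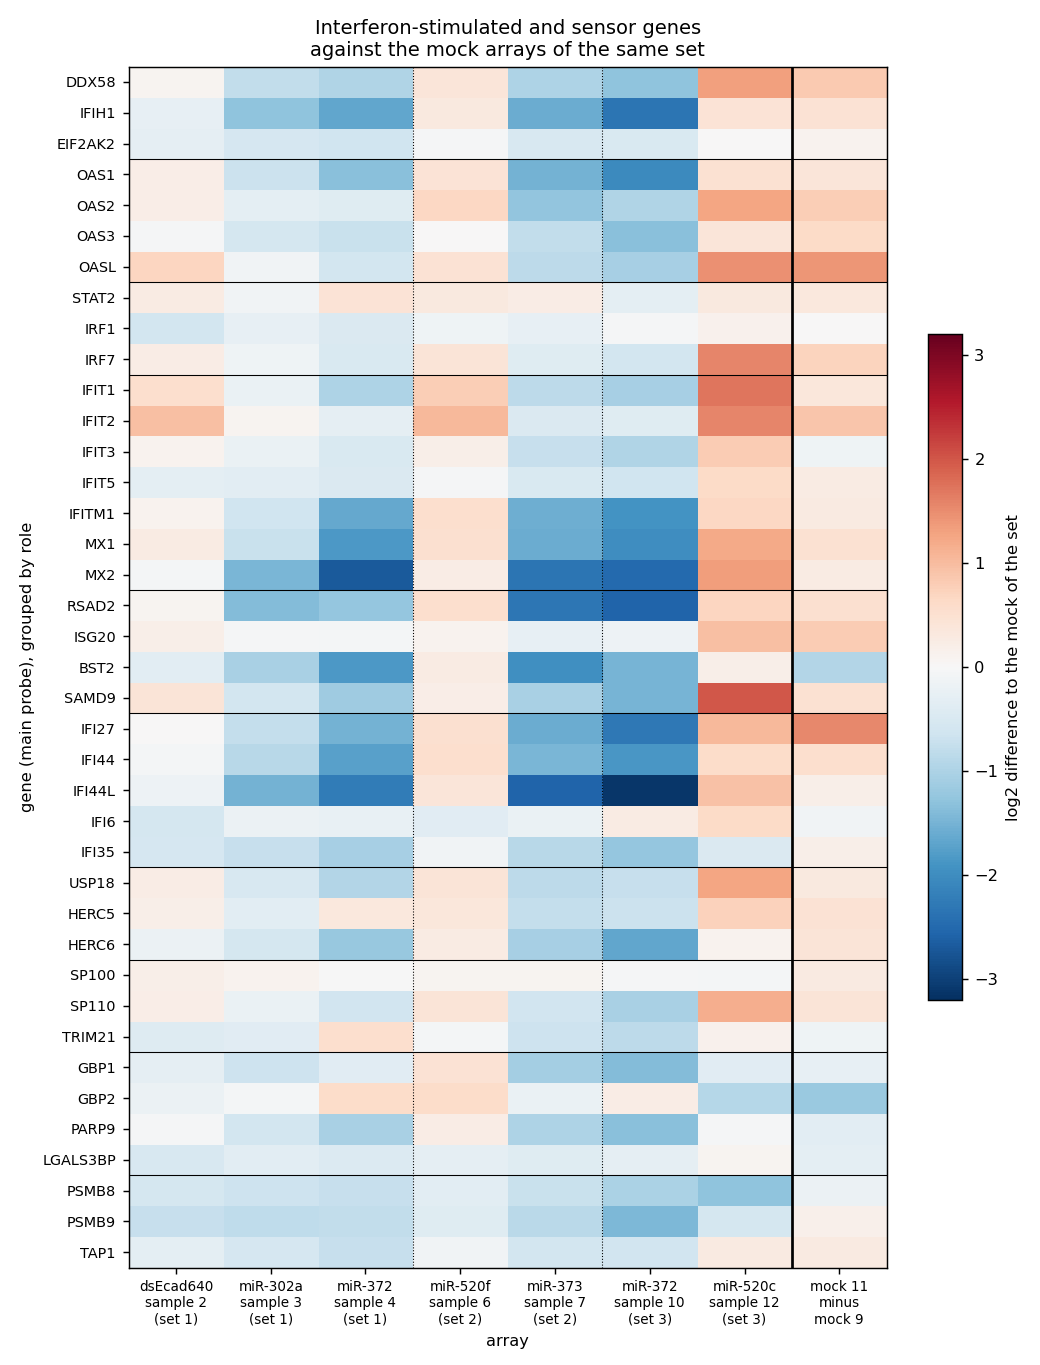
Log2 difference of each duplex array to the mock of its set for the 39 genes with a kept probe (rows, grouped by role, main probe), with the difference between mock samples 11 and 9 in the last column. Blue columns of miR-302a, miR-372 and miR-373 stand beside pale dsEcad640 and miR-520f columns and a mostly red miR-520c column, down to −3.12 (IFI44L, miR-372 sample 10) and up to 1.98 (SAMD9, miR-520c).

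Counted over the 60 probes, at least 2-fold lower signals were read for 31 probes in miR-372 sample 10, against 1.16% of all kept probes, and for 17 in miR-372 sample 4, against 0.546%. The count was 24 in miR-373, against 3.17%, of which 6 were not well above background there, and 21 remained when those were set at the lowest detectable signal. It was 8 in miR-302a, against 1.37%, 1 in miR-520c, against 3.55%, and 0 in dsEcad640, against 2.61%, and in miR-520f, against 6.01%. At least 2-fold higher signals were read for 18 probes in miR-520c, against 3.94%, for 2 in miR-520f, against 2.12%, and for 0 in dsEcad640 (1.27%), miR-302a (0.915%), miR-373 (1.48%) and miR-372 sample 10 (0.963%). In miR-372 sample 4 the 4 higher probes, against 16.4% of all, were further probes of GBP2, HERC6, SAMD9 and SP100 at levels of −3.09 to −2.32. On that array further probes of EIF2AK2, IFIT2, IRF7 and RSAD2, which are dim too, also read above mock, by 0.02 to 0.86, where the main probe of each gene read below.

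**Figure D2:**
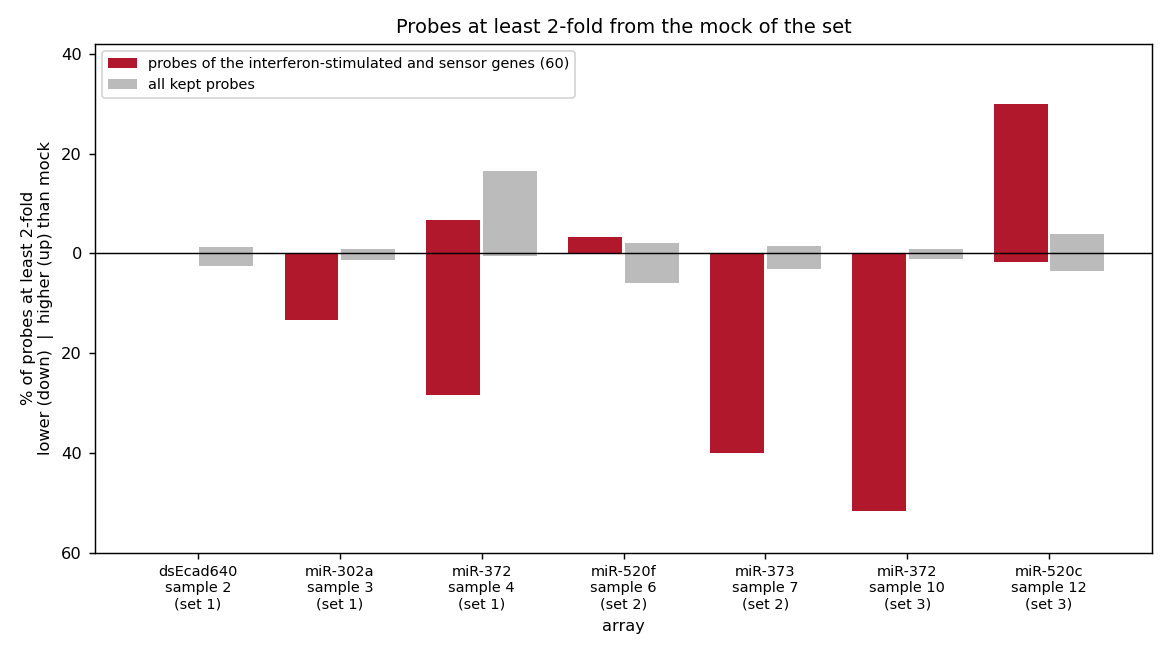
Share of probes at least 2-fold lower (bars down) or higher (bars up) than the mock of the set, in percent, for the 60 probes of these genes (red) and all kept probes (grey). The red bars point down in miR-302a, miR-373 and both miR-372 arrays and up in miR-520c, while the grey bars stay small except for the upward bar of miR-372 sample 4 (16.4%).

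Both miR-372 arrays share no mock array, so each can be compared with its own controls. They may still hold the same RNA mix, as the labels do not say. The signal was below every mock array of its slide on both for 31 of the 39 genes and for 44 of the 60 probes, against 15.6% of all kept probes. At least 2-fold lower on both were 17 probes, against 0.343% of all, of 14 genes: BST2, HERC6, IFI27, IFI35, IFI44, IFI44L, IFIH1, IFITM1, MX1, MX2, OAS1, PARP9, RSAD2 and SAMD9. On the main probe, GBP2, HERC5, IFI6, IFIT2, ISG20, SP100, STAT2 and TRIM21 were not below on both. The SP100 probe A_24_P385611 was, at −0.38 in sample 4 and −0.66 in sample 10. For IFI6 the main probe may not measure the gene, although it stands for IFI6 in all counts of the 39 genes and in the figures. The file places the IFI6 probe with the highest mean at hg18 chr14:105279296-105279355, on another chromosome than the gene, and that probe read 0.27 above mock in miR-372 sample 10, whereas the probe at chr1:27865424-27865483 read −1.77 there and −1.15 in sample 4.

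In the fit of each condition with the set as a block, none of the 27059 to 27118 probes tested was called at an adjusted p under 0.05 by limma in any of the 6 comparisons of a duplex with mock (0% called). This fit has 2 residual degrees of freedom and assumes for single arrays the spread seen among mock and miR-372 arrays. In simulated arrays with the spread left by the pooled comparison, each of the 6 recovered 0% of 200 probes changed by 1 or 2 log2 units. The lack of calls therefore does not show that probes were unchanged. At an unadjusted p under 0.05, 34 of the 60 probes were lower in miR-372 and 0 higher, against 9.52% of all probes in either direction. The counts were 21 lower in miR-373 (3.57% of all) and 11 lower in miR-302a (3.91%), 2 lower in dsEcad640 (7.78%), 2 higher in miR-520f (7.53%), and 21 higher with 1 lower in miR-520c (16.9%). The lower probe of miR-520c was PSMB8. These counts did not pass correction for all probes and are given as such.

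Among the sensors, MDA5 (IFIH1, probe at hg18 chr2:162837052-162837111) had levels of −0.62 in mock sample 1, −0.89 in dsEcad640, −1.92 in miR-302a and −2.30 in miR-372 in set 1. In set 2 it had −0.38 in miR-520f, −2.28 in miR-373 and −0.69 in mock sample 8, and in set 3 it had −0.25 in mock sample 9, −2.36 in miR-372, 0.20 in mock sample 11 and 0.40 in miR-520c. Thus the miR-302a, miR-373 and both miR-372 arrays were below all 4 mock arrays without overlap, and the miR-520c array was the highest of the 11. The difference of miR-372 to mock was −2.05 (SE 0.254, adjusted p = 0.409, limma). RIG-I (DDX58) had 0.40 in mock sample 1, 0.48 in dsEcad640, −0.38 in miR-302a and −0.56 in miR-372. Its levels were 0.78 in miR-520f, −0.60 in miR-373 and 0.39 in mock sample 8, then 0.50 in mock sample 9, −0.37 in miR-372, 1.33 in mock sample 11 and 2.22 in miR-520c. The same 4 arrays were below all mock arrays, and miR-520c was 0.89 above the higher mock of its slide, a gap close to the 0.83 between the 2 mock arrays there.

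PKR (EIF2AK2), which halts translation on binding double-stranded RNA, varied less between arrays. Its levels were 1.74, 1.45, 1.21 and 1.11 in mock, dsEcad640, miR-302a and miR-372 of set 1, and 1.72, 1.24 and 1.76 in miR-520f, miR-373 and mock of set 2. In set 3 they were 1.88 and 2.01 in the mock arrays, 1.46 in miR-372 and 1.95 in miR-520c. All 3 miRNAs that lay low for MDA5 were again below the mock arrays, by 0.49 to 0.63 log2 units, and the other duplexes were within 0.28 of mock. The second, dimmer EIF2AK2 probe differed from mock by −0.45 in miR-520c, −0.37 in dsEcad640 and −0.31 in miR-520f. It differed by −0.75 in miR-302a, −0.55 in miR-373, −0.74 in miR-372 sample 10 and 0.02 in miR-372 sample 4. TLR3, the endosomal sensor, was detected on miR-372 sample 4, both mock arrays of set 3 and miR-520c, and was not kept. Detection did not follow its level, which was −5.83 in mock sample 9 (detected) and −5.58 in mock sample 8 (not detected).

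**Figure D3:**
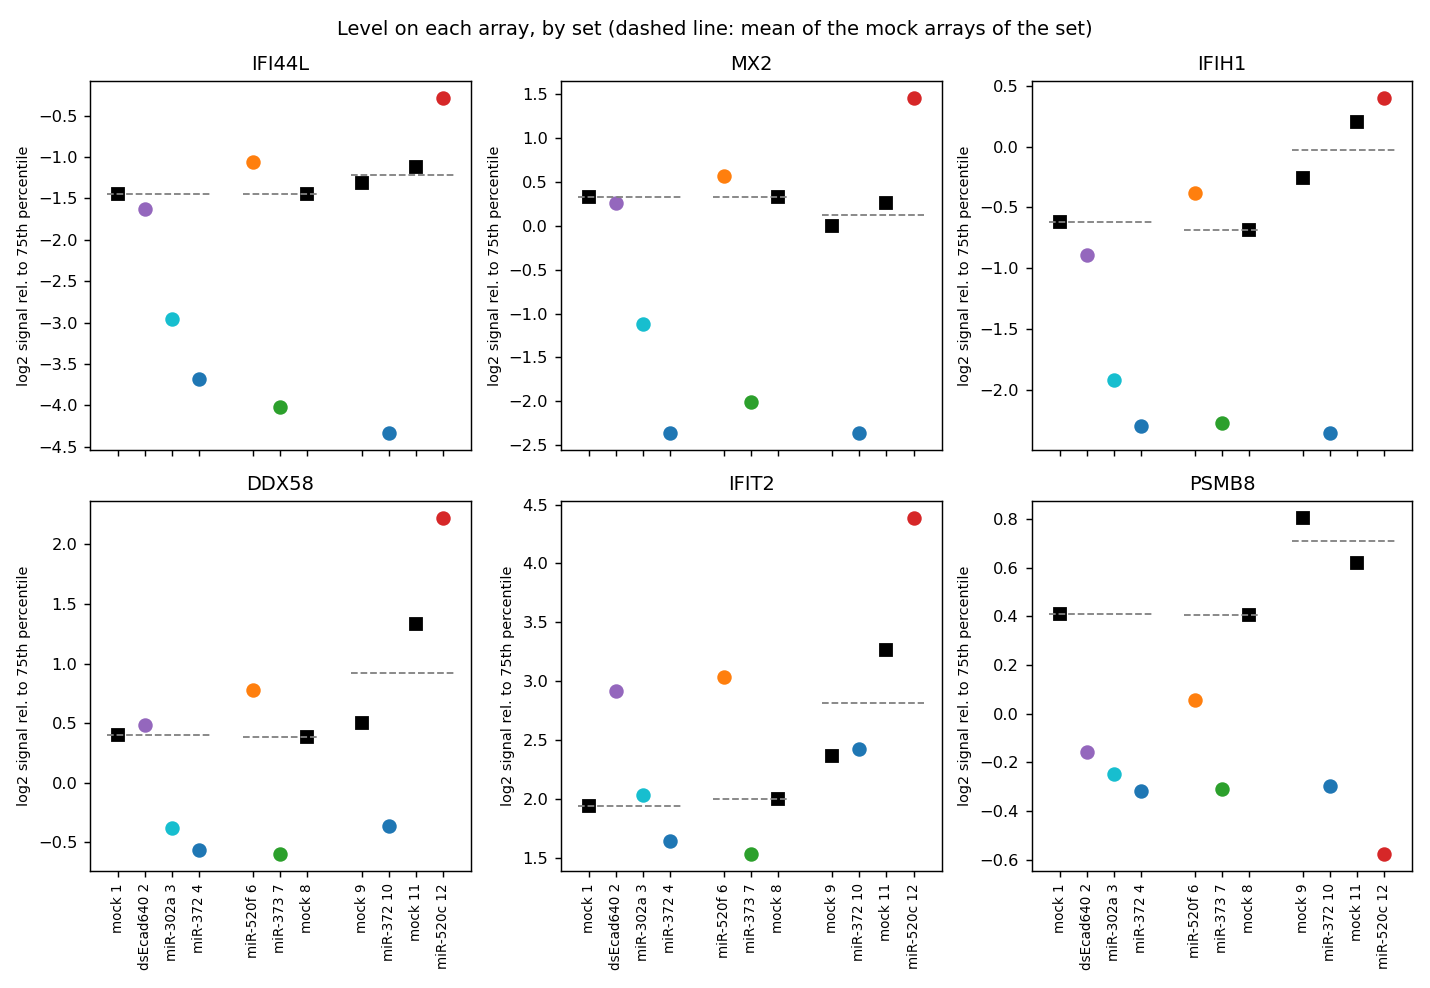
Level of IFI44L, MX2, IFIH1, DDX58, IFIT2 and PSMB8 on each of the 11 arrays (log2 signal minus the array's 75th percentile), ordered by set, with squares for mock and dashed lines for the mean mock of each set. For the first 4 genes the miR-302a, miR-372 and miR-373 points lie below every mock square and miR-520c is highest, while for PSMB8 every duplex point lies below every mock square.

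The 4 oligoadenylate synthetase genes, whose products make the second messenger of RNase L, had the same arrays low as the sensors. OAS1 had −0.38, −0.18, −1.07 and −1.73 in mock, dsEcad640, miR-302a and miR-372 of set 1, and 0.01, −1.94 and −0.42 in miR-520f, miR-373 and mock of set 2. In set 3 it had −0.80 and −0.42 in the mock arrays, −2.64 in miR-372 and −0.12 in miR-520c. Both miR-372 arrays, miR-302a and miR-373 were below all mock arrays. OAS3 read 0.60, 0.56, 0.03 and −0.12 in the same order of set 1, 0.63, −0.15 and 0.63 in set 2, and 0.60 and 1.22 in the mock arrays, −0.42 in miR-372 and 1.30 in miR-520c of set 3. For OAS3 the high arrays of set 3 were both miR-520c and mock sample 11, which differed by 0.08.

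OAS2 was dimmer, with −2.81, −2.61, −3.13 and −3.21 in set 1, −2.10, −4.05 and −2.78 in set 2, and −4.15 and −3.36 in the mock arrays, −4.73 in miR-372 and −2.51 in miR-520c of set 3. Here the mock arrays of set 3 themselves overlapped the duplex arrays of the other sets, and within set 3 miR-520c was highest and miR-372 lowest. OASL, a catalytically inactive relative that enhances RIG-I signalling, read 1.20, 1.88, 1.08 and 0.61 in set 1, 1.69, 0.39 and 1.22 in set 2, and 0.66 and 2.07 in the mock arrays, 0.32 in miR-372 and 2.83 in miR-520c of set 3. It was above mock in dsEcad640 by 0.68, in miR-520f by 0.47 and in miR-520c by 1.46, but its mock arrays in set 3 also lay 1.41 apart.

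Of the transcription factors, IRF7, the interferon-induced amplifier of interferon transcription, was highest in miR-520c. Its levels were 2.78, 3.02, 2.66 and 2.29 in mock, dsEcad640, miR-302a and miR-372 of set 1, 3.22, 2.43 and 2.81 in miR-520f, miR-373 and mock of set 2, and 2.70 and 3.40 in the mock arrays, 2.46 in miR-372 and 4.61 in miR-520c of set 3. The miR-520c array was 1.21 above the higher mock array of its slide, and the low arrays were at most 0.59 below mock. STAT2, a subunit of the complex that binds the response element, was dim and read −3.22, −2.94, −3.34 and −2.77 in set 1, −2.85, −2.93 and −3.16 in set 2, and −3.25 and −2.91 in the mock arrays, −3.40 in miR-372 and −2.77 in miR-520c of set 3. Duplex and mock arrays overlapped, and of the miR-372 arrays sample 4 was among the highest and sample 10 was the lowest. IRF1, which acts early in the interferon response, read −1.11, −1.69, −1.38 and −1.57 in set 1, −1.27, −1.39 and −1.13 in set 2, and −1.99 and −1.97 in the mock arrays, −2.02 in miR-372 and −1.83 in miR-520c of set 3. All arrays of set 3 were below all others.

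IRF9 (named ISGF3G in the files), the DNA-binding subunit of that complex, and the ubiquitin-like protein ISG15 are not among the 44 genes but belong to this response. ISG15 was 0.91 below mock in miR-372 sample 4, 0.92 below in sample 10, 0.70 below in miR-373 and 0.39 below in miR-302a, and 0.71 above in miR-520c. The IRF9 probe A_23_P65442 read −1.18 and −1.56 in the miR-372 arrays and 0.44 in miR-520c, while the dimmer IRF9 probe read 2.21 and −0.45 in the miR-372 arrays. Neither gene was called in the comparison of all duplex with all mock arrays.

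The widest differences were those of IFI44L, MX2 and RSAD2. IFI44L, a relative of IFI44 that is strongly induced by interferon (probe at hg18 chr1:78880178-78880237), read −1.45 in mock sample 1, −1.63 in dsEcad640, −2.96 in miR-302a and −3.69 in miR-372. In set 2 it read −1.06 in miR-520f, −4.02 in miR-373 and −1.45 in mock sample 8, and in set 3 −1.31 and −1.12 in the mock arrays, −4.34 in miR-372 and −0.28 in miR-520c. The mock arrays lay between −1.45 and −1.12 over 3 slides. The 4 low arrays were 1.51 to 3.12 below the mock of their slide, which is 8.72-fold at the most. The fitted difference of miR-372 to mock was −2.74 (SE 0.260, adjusted p = 0.375, limma), and that of miR-373 was −2.57 (SE 0.398, adjusted p = 0.889, limma).

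MX2, a GTPase that blocks nuclear import of viral genomes, read 0.33, 0.26, −1.12 and −2.36 in mock, dsEcad640, miR-302a and miR-372 of set 1 and 0.57, −2.0 and 0.33 in miR-520f, miR-373 and mock of set 2. In set 3 it read −0.00 and 0.26 in the mock arrays, −2.37 in miR-372 and 1.46 in miR-520c. The 2 miR-372 arrays thus had nearly the same level on different slides, 6.45-fold and 5.65-fold below mock. The fitted difference of miR-372 was −2.58 (SE 0.165, adjusted p = 0.375, limma), and the second MX2 probe gave −1.88 (SE 0.179). RSAD2 (viperin), a radical-SAM enzyme that makes a chain-terminating nucleotide, read −1.14, −1.05, −2.52 and −2.37 in set 1, −0.50, −3.33 and −1.03 in set 2, and −0.99 and −0.47 in the mock arrays, −3.30 in miR-372 and −0.05 in miR-520c of set 3. Its 4 low arrays were again below every mock array, and in miR-302a it had a difference of −1.38.

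The related GTPase MX1 read 4.00, 4.26, 3.29 and 2.15 in mock, dsEcad640, miR-302a and miR-372 of set 1, 4.56, 2.47 and 4.06 in miR-520f, miR-373 and mock of set 2, and 3.64 and 4.12 in the mock arrays, 1.88 in miR-372 and 5.10 in miR-520c of set 3. IFITM1, a membrane protein that blocks viral entry, read 1.75, 1.85, 1.11 and 0.12 in set 1, 2.41, 0.32 and 1.87 in set 2, and 1.60 and 1.89 in the mock arrays, −0.16 in miR-372 and 2.41 in miR-520c of set 3. Both genes had the miR-302a, miR-373 and miR-372 arrays below all mock arrays, with miR-302a the least low. The fitted differences of miR-372 were −1.93 (SE 0.207) for MX1 and −1.79 (SE 0.177) for IFITM1, both with an adjusted p of 0.375 (limma).

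BST2 (tetherin), which holds budding virions at the cell surface, read −0.31, −0.65, −1.34 and −2.15 in set 1, −0.05, −2.28 and −0.32 in set 2, and −0.94 and −1.88 in the mock arrays, −2.90 in miR-372 and −1.23 in miR-520c of set 3. The miR-520c array lay between the 2 mock arrays of its slide. SAMD9, a restriction factor of poxviruses, read 0.94, 1.34, 0.36 and −0.20 in set 1, 1.02, −0.25 and 0.80 in set 2, and 1.23 and 1.72 in the mock arrays, −0.02 in miR-372 and 3.46 in miR-520c of set 3. It had the largest excess in miR-520c of the 39 genes, 1.74 above the higher and 2.22 above the lower mock array, and 3 further SAMD9 probes gave 0.69 to 1.64 above the mean of the mock arrays.

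IFI27, a small membrane protein strongly induced by interferon alpha, read 1.11, 1.12, 0.36 and −0.40 in mock, dsEcad640, miR-302a and miR-372 of set 1 and 1.63, −0.48 and 1.11 in miR-520f, miR-373 and mock of set 2. In set 3 it read 0.99 in mock sample 9, −0.53 in miR-372, 2.53 in mock sample 11 and 2.81 in miR-520c. Here mock sample 11 stood with miR-520c and not with the other mock arrays. The difference of miR-520c was therefore 1.82 against mock sample 9 and 0.27 against mock sample 11. IFI44 and IFI35 were at least 2-fold lower on both miR-372 arrays, and IFI35, which binds NMI, was the one of them that lay below mock in miR-520c too, by 0.46.

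The 4 IFIT genes, whose products bind foreign RNA ends and block translation, were all above the mean of the mock arrays of set 3 in miR-520c. IFIT2 read 1.94, 2.92, 2.04 and 1.65 in mock, dsEcad640, miR-302a and miR-372 of set 1, 3.04, 1.54 and 2.00 in miR-520f, miR-373 and mock of set 2, and 2.36 and 3.26 in the mock arrays, 2.42 in miR-372 and 4.38 in miR-520c of set 3. On the main probes it was the highest of the 39 genes relative to mock in dsEcad640 (0.97) and in miR-520f (1.04). IFIT1 was 0.54 above mock in dsEcad640, 0.78 above in miR-520f and 1.72 above in miR-520c, and 0.99 and 1.05 below in the miR-372 arrays. IFIT3 was 0.80 and IFIT5 0.62 above mock in miR-520c. The fitted difference of miR-520c was 1.73 for IFIT1 (SE 0.226, adjusted p = 0.266, limma) and 1.58 for IFIT2 (SE 0.411, adjusted p = 0.266, limma).

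In miR-520c, 28 of the 39 genes and 43 of the 60 probes were above both mock arrays of set 3, against 44.8% of all probes. IFIT1, IFIT2, IRF7, MX2, SAMD9 and USP18, the ISG15-removing protease, were at least 2-fold above both. Set against mock sample 9 alone, 21 probes were at least 2-fold higher in miR-520c (5.86% of all), and against mock sample 11 alone 9 probes were (3.55% of all). The 2 mock arrays differed, with 4 of the 60 probes at least 2-fold higher in mock sample 11 (1% of all) and a median difference of 0.28, against 0.03 between mock samples 8 and 1. For miR-372 sample 10 the choice mattered less, with 27 probes at least 2-fold below mock sample 9 (1.24% of all) and 33 below mock sample 11 (1.88%).

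Arrays of different duplexes on 1 slide can be set against each other without any mock array. The miR-520c array was above the miR-372 array of set 3 for 36 of 39 genes, at least 2-fold for 27, with a median difference of 1.76 and up to 4.06 for IFI44L. GBP2, PSMB8 and SP100 were the exceptions. Over the probes, 41 of 60 were at least 2-fold higher, against 1.96% of all probes, and these 2 duplexes have the same seed in the strands shown. The miR-520f array was above the miR-373 array of set 2 for 38 of 39 genes, at least 2-fold for 22, with a median of 1.22 and up to 2.95 for IFI44L (34 of 60 probes at least 2-fold higher, against 2.75% of all). The exception was IFI6 on its main probe, which is placed on another chromosome than the gene. The IFI6 probe on chromosome 1 was 1.42 higher in miR-520f. The dsEcad640 array was above the miR-302a array of set 1 for 34 genes, at least 2-fold for 4, with a median of 0.52 and up to 1.47 for RSAD2 (9 of 60 probes, against 0.409%). These are differences between single arrays of mixed RNA and carry no test. Of all kept probes, 47.0% were lower in miR-520c than in miR-372, 55.3% in miR-520f than in miR-373 and 56.4% in dsEcad640 than in miR-302a.

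**Figure D4:**
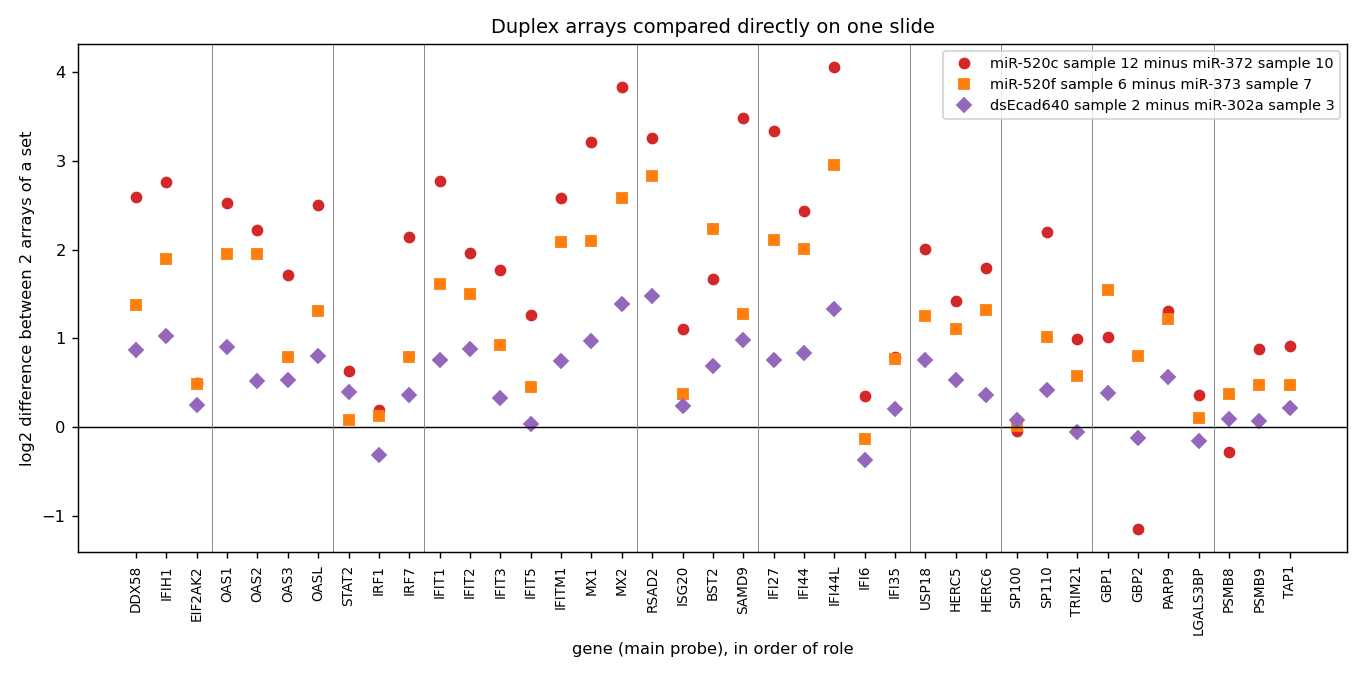
Log2 difference between 2 duplex arrays of the same slide for each of the 39 genes, with miR-520c minus miR-372 in set 3 (circles), miR-520f minus miR-373 in set 2 (squares) and dsEcad640 minus miR-302a in set 1 (diamonds). Nearly all points are above 0, with the highest at IFI44L (4.06) and the lowest at GBP2 (−1.15).

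The remaining genes varied in their pattern. HERC6, a HERC-family ligase, and PARP9, the partner of the ligase DTX3L, were at least 2-fold lower on both miR-372 arrays and within 0.12 of mock in miR-520c. HERC5, the main ISG15 ligase, was 0.73 above mock in miR-520c and 0.69 below in miR-372 sample 10, but 0.34 above in miR-372 sample 4. The nuclear body protein SP110 was 1.17 above mock in miR-520c and 1.03 below in miR-372 sample 10.  The guanylate-binding proteins differed from each other. GBP1 was 1.39 below mock in miR-372 sample 10, 1.09 below in miR-373 and 0.37 below in miR-520c, whereas GBP2 was 0.58 above mock in miR-372 sample 4 and in miR-520f and 0.91 below in miR-520c, with mock arrays of set 3 that lay 1.19 apart. The second, dimmer GBP2 probe was 2.55 above mock in miR-520f, 1.97 above in miR-372 sample 4 and 0.53 below in miR-520c.

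The comparison of all 7 duplex with all 4 mock arrays, with the set as a block, asked what the duplexes had in common. By limma with Benjamini-Hochberg adjustment, 2 of the 60 probes were called, both lower, against 5.47% of all 27118 probes called in either direction and 2.45% called lower. The number of calls was thus near the background. A further 44 of the 60 were below 0 without a call, and the median was −0.27 against 0.02 for all probes. Over all probes, called or not, 47.0% were below 0. The 2 probes were those of PSMB8 and PSMB9, which replace catalytic subunits of the proteasome in the immunoproteasome and whose probes lie near each other on chromosome 6 (hg18 chr6:32918001-32918468 and chr6:32931896-32931955).

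PSMB8 read 0.41 in mock sample 1, −0.16 in dsEcad640, −0.25 in miR-302a and −0.32 in miR-372 in set 1. It read 0.06 in miR-520f, −0.31 in miR-373 and 0.40 in mock sample 8 in set 2, and 0.80 and 0.62 in the mock arrays, −0.30 in miR-372 and −0.58 in miR-520c in set 3. All 7 duplex arrays were below all 4 mock arrays. The difference was −0.82 (SE 0.135, adjusted p = 0.0140, limma). PSMB9 read 1.20, 0.46, 0.39 and 0.41 in set 1, 0.80, 0.33 and 1.19 in set 2, and 0.39 and 0.56 in the mock arrays, −0.97 in miR-372 and −0.09 in miR-520c of set 3. Its duplex arrays were below the mock of their slide in every set, and overlapped with mock between sets. The difference was −0.83 (SE 0.173, adjusted p = 0.0311, limma). TAP1, a subunit of the peptide transporter, whose probe lies between them (chr6:32921188-32921247), was below mock in 6 of the 7 duplex arrays and 0.29 above in miR-520c, and was not called (−0.33, SE 0.190, adjusted p = 0.367, limma).

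Both calls depended on single arrays. PSMB8 was not called without mock sample 1 (−0.90, adjusted p = 0.0724, limma). PSMB9 was not called without mock sample 1 (adjusted p = 0.145), 8 (0.0814), 9 (0.0760) or 11 (0.0813), without dsEcad640 (0.0571), miR-302a (0.0615) or miR-373 (0.0576), or with mock samples 1 and 8 counted as 1 sample (0.0699), with differences between −0.91 and −0.77, nor without the term for the set (−0.64, 0.415) or the filter on dim probes (0.0892).

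Further genes of the pathway were taken from 3 lists, chosen with earlier results of these data known. The counts of calls in them are therefore not an independent test. Of 92 kept probes for other interferon-induced genes, 14 were called lower and 0 higher, with percentages for all probes as above, at a median of −0.29 over the list. Among them were HLA-B, HLA-C, HLA-E (2 probes) and HLA-F, class I heavy chains that present peptides, TAPBP (tapasin), which loads them, PSME1 (2 probes), a proteasome activator, and GBP3, IRF2, NMI, TRIM14 and TRIM69. Each of these 13 of the 14 probes was below the mock of its slide in all 7 duplex arrays. The same arrays had selected these probes as lower, so this adds no separate support. HLA-C fell by 0.58 on the log2 scale (SE 0.128, adjusted p = 0.0360, limma), TAPBP by 0.41 (SE 0.0838, adjusted p = 0.0282, limma) and IRF2 by 0.95 (SE 0.223, adjusted p = 0.0451, limma). HLA probes may bind transcripts of several HLA genes, so they may not be separate measurements. The count of 14 was 1 with mock samples 1 and 8 counted as 1 sample, 0 without mock sample 1, 1 without mock sample 9 or miR-372 sample 10, 2 without mock sample 8 or 11, dsEcad640 or miR-373, and 3 without miR-302a.

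**Figure D5:**
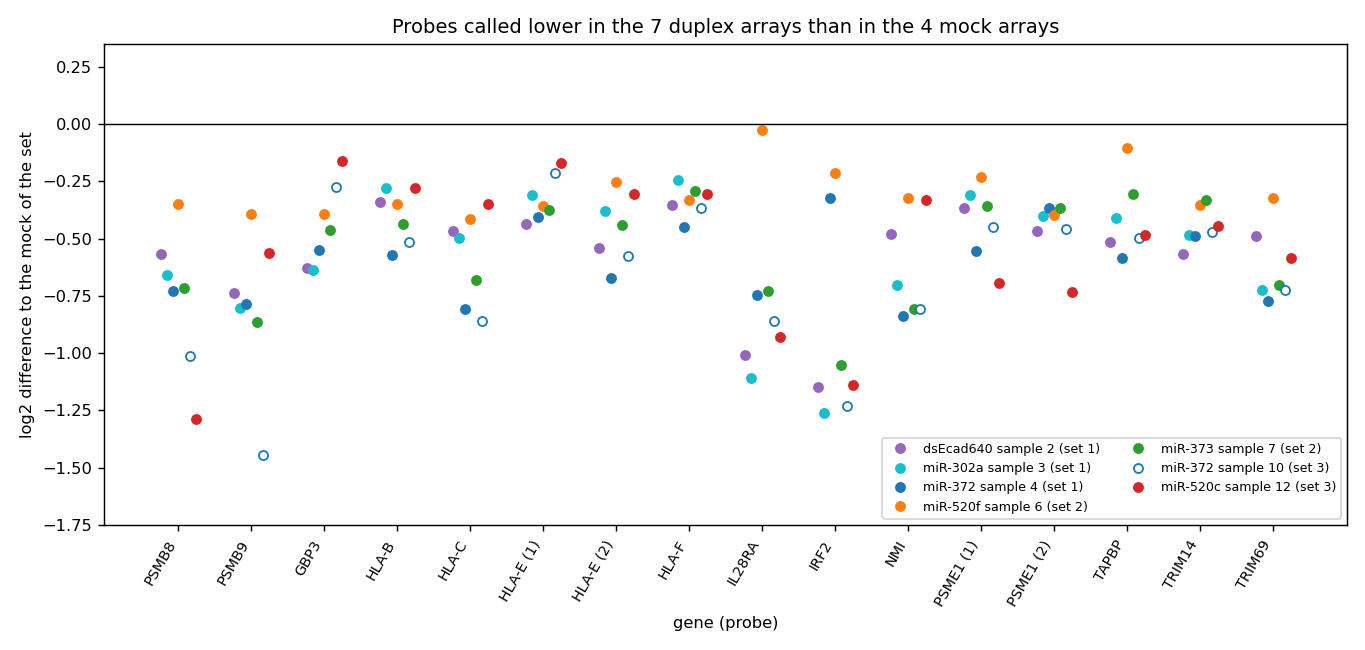
Log2 difference of each of the 7 duplex arrays to the mock of its set for 16 of the 17 probes called lower, PSMB8 and PSMB9 and those from the pathway lists (1 is not shown, numbers in brackets count probes of a gene). All points shown are below 0, from −0.02 (IL28RA, miR-520f) to −1.44 (PSMB9, miR-372 sample 10). The probes were selected as lower on these same arrays.

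Of 21 kept probes for interferons and their receptors, 1 was called lower, IL28RA, the receptor chain for type III interferon, which fell by 0.77 (SE 0.160, adjusted p = 0.0304, limma). Of 19 kept probes for sensor adaptors and kinases, 1 was called higher, TARBP2, the Dicer partner that also binds PKR, by 0.54 (SE 0.102, adjusted p = 0.0237, limma). With 2.45% of all probes called lower and 3.02% called higher, 1 call in a list of this size is near the background. Without mock sample 1, 9 or 11 or miR-302a neither was called. Neither was called with mock samples 1 and 8 counted as 1 sample either. IL28RA was also lost without dsEcad640, miR-373 or miR-372 sample 10, and TARBP2 without mock sample 8. The probe of interferon beta (IFNB1) was well above background on 2 arrays, mock sample 11 and miR-520c. Both are in set 3, where dimmer signals counted as detected than in the other sets. Of 16 interferon probes, those of IFNE1 and IL28A were detected on all 11 arrays and that of IFNA4 on 9, whereas 8 others were detected on miR-372 sample 4 alone, the array on which dim probes read high.

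Whether the slides differed was tested in the same fit. Set 3 differed from sets 1 and 2 for 10 of the 60 probes, against 49.9% of all probes called (26.2% lower), and at an unadjusted p under 0.05 for 16, against 56.7%. Higher in set 3 were IFIT2 (second probe, 1.44), ISG20 (0.95), IFIT5 (0.78) and SP100 (0.30), and lower were the IFI6 probe on chromosome 14 (−1.70), a second SP100 probe (−1.59), PSMB9 (−0.90), TRIM21 (−0.69), LGALS3BP (−0.64) and IRF1 (−0.64). The array values show the step between slides.

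ISG20, an exonuclease, read 2.61, 2.81, 2.57 and 2.56 in mock, dsEcad640, miR-302a and miR-372 of set 1, 2.77, 2.39 and 2.66 in miR-520f, miR-373 and mock of set 2, and 2.93 and 3.75 in the mock arrays, 3.19 in miR-372 and 4.29 in miR-520c of set 3. IFIT5 read −0.01, −0.31, −0.34 and −0.46 in set 1, 0.03, −0.42 and 0.07 in set 2, and 0.50 and 0.76 in the mock arrays, −0.01 in miR-372 and 1.26 in miR-520c of set 3. Every ISG20 value of set 3 was above every value of the other sets, whereas for IFIT5 the miR-372 array of set 3 lay among them. SP100, a nuclear body protein, was the brightest of these, with 5.41, 5.60, 5.53 and 5.40 in set 1, 5.49, 5.48 and 5.40 in set 2, and 5.65 and 5.93 in the mock arrays, 5.76 in miR-372 and 5.72 in miR-520c of set 3. On this probe it stayed within 0.19 of mock in all 7 duplex arrays. Its second probe went the other way between sets, from 0.23 to 0.74 in sets 1 and 2 down to −1.35 to −0.65 in set 3. The SP100 probe A_24_P385611 was below mock in all 7 duplex arrays, from −0.13 in miR-520f to −0.66 in miR-372 sample 10. The remaining further probes, the second included, had both signs across the duplex arrays.

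LGALS3BP, a secreted glycoprotein, read −0.63, −1.14, −0.98 and −1.06 in set 1, −1.04, −1.14 and −0.74 in set 2, and −1.35 and −1.65 in the mock arrays, −1.78 in miR-372 and −1.41 in miR-520c of set 3. TRIM21, an antibody receptor of the cytosol, read −3.41, −3.83, −3.77 and −2.88 in set 1, −3.45, −4.03 and −3.38 in set 2, and −3.94 and −4.07 in the mock arrays, −4.86 in miR-372 and −3.86 in miR-520c of set 3. Set 3 lay below the other sets without overlap for LGALS3BP and with overlap for TRIM21. The IFI6 probe on chromosome 14 read 1.31 to 1.90 in sets 1 and 2 and −0.41 to 0.26 in set 3. The IFI6 probe on chromosome 1 read 1.35, 1.23, 0.85 and 0.20 in set 1, 1.53, 0.11 and 1.33 in set 2, and 0.88 and 1.58 in the mock arrays, −0.54 in miR-372 and 1.92 in miR-520c of set 3. On that probe both miR-372 arrays, miR-373 and miR-302a were below all mock arrays. For the probe on chromosome 14 the gap was there among the mock arrays alone, at 1.90 and 1.66 in mock samples 1 and 8 against −0.31 and −0.41 in mock samples 9 and 11. The duplex effect was not called as different between set 3 and sets 1 and 2 for any of 27106 probes (0% called, limma), and 2 of the 60 probes had an unadjusted p under 0.05, against 4.18% of all. In simulated arrays this comparison recovered 0% of probes changed by 1 log2 unit and 49% of those changed by 2. It can therefore miss differences of these sizes.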

How the data were processed

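Each array measured the RNA of 1 mix of 4 transfections of PC-3 cells, labelled with Cy3. The deposited scanner files hold intensity values from Agilent Feature Extraction 10.5.1.1, per the file headers, background-subtracted and detrended within each array but not scaled between arrays, with probe positions on hg18. A second deposited table holds log2 values that the authors had normalized within each set by a method not given in the sources used here, and it served as an alternative.

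Here the log2 intensity was taken minus the 75th percentile of its array, outlier spots (52 to 209 of 43376 per array) were dropped, and spots of a probe were averaged. Probes well above background on at least 6 of 11 arrays were kept. Differences to mock were taken within a set, with the mean of both mock arrays in set 3. Tests used limma 3.58.1 in R 4.3.3, two-sided, with the set as a block and Benjamini-Hochberg adjustment over all kept probes, at an adjusted p under 0.05. The code was tested on simulated data. Other steps used Python 3.11.15 with numpy 2.4.6 and pandas 2.3.3, and figures matplotlib 3.10.9.

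Full values are given for sensors, oligoadenylate synthetases and transcription factors, for genes called in any comparison and for the 8 further genes with the largest difference to mock. The genes and lists were chosen with earlier results of these data known. Alternatives were no term for the set, normexp on the raw spot and background signals (offset 50), quantile normalization, other filters on dim probes, the authors' table, averaging the probes of a gene, the duplexes of the common seed alone, and each array left out. Counting mock samples 1 and 8 as 1 sample was chosen after seeing the data, as was rerunning the alternatives for the pathway lists. The number of arrays limits the precision. Results for a few genes of the lists and markers are not reported here.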

Additional observations from a re-analysis of the deposited data

Results flagged for a closer look

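Among the 4 mock arrays, 1 array stood apart for 8 of the 39 genes, by a gap to the nearest other mock array that, as a share of the whole range, exceeded Dixon's critical value for 4 arrays (which chance passes for about 1 in 20 genes where arrays vary alike). Mock sample 11 was the high array for DDX58 (0.8771), IFI27 (0.9188), IRF7 (0.8438), OAS3 (0.9541) and TAP1 (0.9812), and the low array for GBP1 (0.8356) and GBP2 (0.9427). Mock sample 9 was the low array for OAS1 (0.9068). For IFI27 mock sample 11 read 2.53 and the other mock arrays 0.99 to 1.11, and for DDX58 it read 1.33 and the others 0.39 to 0.50. The mock arrays do not vary alike, since they lie on 3 slides and the SD of the difference over the 60 probes was 0.128 between mock samples 1 and 8 and 0.545 between 9 and 11, so chance can pass the value more often here. These genes share arrays and are not independent of each other. The share of all kept probes past this value was not computed, so the count cannot be read as particular to these genes.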

How the results depend on the processing

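Of the named genes' duplex to mock differences, those of PSMB8 and PSMB9 were called. PSMB8 lost its call in 1 of 20 alternatives and PSMB9 in 10 of 20. Of 500 alternative values for the 25 genes that were not called, 32 changed sign. The 2 calls among the 60 probes were 1 without the set term (1.5% of all probes called), without the filter (0.824%) and with mock samples 1 and 8 counted as 1 sample (1.5%), and 0 (without mock sample 1, 0.531%) to 3 with an array left out (without miR-372 sample 4, 7.6%, or miR-520f, 4.19%). The 10 probes differing in set 3 were 23 with normexp, which called 71% of all probes. Normexp also called 5 probes for miR-372 (0.129% of all) and 3 for miR-520c (0.494%), against 0. With an array left out, the calls were 0 to 5 for dsEcad640 and 0 to 8 for miR-302a, highest without mock sample 1 with 9.25% and 6.15% of all probes called. They were 0 to 12 for miR-372, highest without miR-372 sample 10 (3 higher and 9 lower, 12% of all called), and 0 to 2 for miR-373, highest without mock sample 1 or either miR-372 array (0.329%). Of the lists, the 14 calls among other induced genes were 1 without the set term, the filter or with mock samples 1 and 8 as 1 sample, 22 with probes detected on all arrays (11% of all called), 25 in the authors' table (11%), 7 with the mean of probes (5.11%) and 0 to 15 with an array left out. The 1 receptor call was 0 without the set term, the filter or with mock samples 1 and 8 as 1 sample, 3 with normexp and with probes detected on all arrays, 2 in the authors' table and with the mean of probes, and 0 to 3 with an array left out. The 1 adaptor call was 0 without the filter or with mock samples 1 and 8 as 1 sample, and 0 to 1 with an array left out.

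The sign changes were all in duplex to mock differences that were not called. Without the set term OAS2 was 0.087, OASL −0.032, ISG20 −0.048 and SP100 −0.027. With quantile normalization OASL was −0.016, IFI6 −0.020 and SP100 −0.036, and in the authors' table OASL was −0.012, IFI6 −0.013 and SP100 −0.034. With the mean of probes IFI6 was −0.27 and SP100 −0.17, and with the common-seed duplexes alone OASL was −0.10. With an array left out the range was −0.71 to 0.12 for DDX58, −0.47 to 0.25 for OAS2, −0.40 to 0.41 for OASL, −0.23 to 0.46 for IRF7, −0.12 to 0.15 for IFI6, −0.062 to 0.29 for ISG20 and −0.77 to 0.34 for SAMD9. The cause was not tested. miR-373 and miR-520f could not be compared with mock without mock sample 8. The sample numbers pair no arrays, and duplex and mock arrays were matched by slide, through the set term. Dim probes, above all on miR-372 sample 4, limit what can be read near background.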
